A study of Mus musculus with 6 samples.

Results

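Expression was followed for 10 genes of fatty acid and lipid droplet handling (Pparg, Fabp4, Plin2, Hilpda, Acsl1, Cpt1a, Angptl4, Fasn, Scd1 and Scd2), out of 43432 gene IDs listed for each library. They were selected on their symbols and their roles, with the measured differences between hyperoxia and normoxia in these same libraries known, so these differences between groups are given as a description, with no test of the 10 genes. All 10 matched a single Ensembl ID through GENCODE M21 and passed the filter on low counts.

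The study sequenced RNA of neutrophils from the uteri of PRPL mice, which carry Pgrcre/+, strain C57BL/6, aged 4 weeks (postnatal day 28). The hyperoxia group, 3 libraries, came from mice kept in a chamber at 60% oxygen from postnatal day 18 to 28, and the normoxia group, 3 libraries, from mice kept in ambient oxygen. Both groups carried the same alleles. The Cre is driven from the progesterone receptor locus, so it acts in cells that express that receptor and not, by design, in the neutrophils. Cells were sorted as CD45+ Ly6Ghi CD11b+ from digested uteri. The comparison asked what 10 days of raised oxygen for the host changed in these cells. The labels do not say whether each library came from a separate animal or a pool, so the spread between libraries may be technical in part.

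Libraries held 44152840 to 61715617 counts in hyperoxia and 38683293 to 44870447 in normoxia. All 12 neutrophil markers examined were detected, and together they reached 40191 to 109593 CPM in hyperoxia, against 40806.5 to 61598 CPM in normoxia (CPM, counts per 1000000 counts of a library, after scaling for composition). Most of that sum was S100a8 and S100a9, and some single markers varied more than the sum and others less. In hyperoxia Ly6g was at 196, 351 and 38.9 CPM and Mmp8 at 920, 3708 and 174 CPM, while Cxcr2 was at 2666, 2174 and 1737 CPM. The normoxia values were 146, 53.4 and 72.7 CPM for Ly6g, 612, 206 and 261 CPM for Mmp8 and 2590, 2100 and 2215 CPM for Cxcr2. Hyperoxia replicate 2 stood apart, with the highest neutrophil and endothelial marker sums and the lowest epithelial sum of the 6 libraries, so values that leaving it out moved by over 1.5 times are given without it for the 10 genes and for the gene lists. Markers of macrophages and monocytes summed to 2661 to 8554 CPM in hyperoxia, against 1625 to 2145 CPM in normoxia. Of the 8554 CPM, in hyperoxia replicate 2, Lyz2 alone held 6133 CPM, a lysozyme gene that neutrophils also express. In bulk RNA, a change in the number of cells of a type and a change in RNA per cell cannot be told apart.

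PPAR-gamma, encoded by Pparg, is a nuclear receptor that binds fatty acids and, as a dimer with a retinoid X receptor, switches on genes of lipid uptake and storage, Fabp4, Plin2, Angptl4 and Cd36 among them. Cells store surplus fatty acid as triglyceride in lipid droplets, which carry a perilipin coat and are broken down by adipose triglyceride lipase. Hilpda, Angptl4 and Plin2 are also known as genes that respond to hypoxia. Fasn makes saturated fatty acid, Scd1 and Scd2 desaturate it, Acsl1 activates it, and Cpt1a passes it to the mitochondrion for oxidation.

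Promoter windows from RefSeq (GRCm38.p6), 250 bases before to 50 after an annotated start, were found for 6 of the 10 genes, 10 windows in all, and none were matched for Fabp4, Angptl4, Scd1 and Scd2. They were searched on both strands for a PPAR response element of the direct-repeat kind (DR1, the half-site AGGTCA repeated with a single base between), for the core of the hypoxia response element (ACGTG) and for the palindromic E-box CACGTG, which contains that core. The windows that held a core are shown because Plin2 and Hilpda were the most abundant of the 10 genes. Capitals mark the matches, and each sequence reads 5′ to 3′ on the strand of its gene.
Plin2, chr4:86670010-86670309, minus strand: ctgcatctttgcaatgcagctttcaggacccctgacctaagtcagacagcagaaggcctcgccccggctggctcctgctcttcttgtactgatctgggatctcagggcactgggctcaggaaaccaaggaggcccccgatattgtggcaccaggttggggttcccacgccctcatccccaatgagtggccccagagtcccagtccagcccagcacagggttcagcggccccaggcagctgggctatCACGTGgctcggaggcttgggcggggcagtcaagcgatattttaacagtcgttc
Hilpda, chr6:29272376-29272675, plus strand: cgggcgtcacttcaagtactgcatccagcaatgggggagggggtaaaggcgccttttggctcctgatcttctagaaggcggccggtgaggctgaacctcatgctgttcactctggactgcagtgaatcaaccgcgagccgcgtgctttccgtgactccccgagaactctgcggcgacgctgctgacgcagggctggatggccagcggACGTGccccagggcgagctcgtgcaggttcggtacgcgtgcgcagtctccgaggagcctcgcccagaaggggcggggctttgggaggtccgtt
In Plin2 the E-box lay across the start, from position -4, counted in bases from the start. In Hilpda the core lay at position -43, counted from the annotated start within the window shown. That start lies inside the gene, and the upstream Hilpda window, chr6:29272238-29272537, held no core. The core was thus present in 2 of the 10 windows, while 19.6% of all 32851 windows held it, and the E-box was present in 1 of the 10, against 7.15% of all windows. No window of these genes held the PPAR element, which was found in 0.0396% of all windows. A match describes these letters only, and its absence says nothing of binding elsewhere.

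The 10 genes spanned a wide range of levels, with both coat and lipase-inhibitor genes of the lipid droplet far above the others. Levels between genes were compared as CPM per kilobase of the union of annotated exons. Hilpda, which encodes a small lipid droplet protein that inhibits adipose triglyceride lipase, averaged 1055 ± 333 per kilobase in hyperoxia, against 839 ± 75.6 per kilobase in normoxia (SD, n = 3 each). Among 12859 genes ranked by level per kilobase it was at rank 61 in hyperoxia and rank 71 in normoxia. Plin2, the perilipin that coats droplets in most cell types, averaged 319 ± 78.3 per kilobase in hyperoxia, against 248 ± 27.8 per kilobase in normoxia (SD, n = 3 each), at ranks 201 and 239. Every other gene of the 10 averaged less than 3 per kilobase in either group, beside a median over all genes ranked of 1.12 per kilobase in normoxia.

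In normoxia the order by level per kilobase was Hilpda, Plin2, Acsl1, Cpt1a, Scd2, Fabp4, Angptl4, Pparg, Scd1 and Fasn. The steps from Hilpda to Plin2, from Plin2 to Acsl1 and from Scd2 to Fabp4 had no overlap between libraries, and all other neighbours overlapped. The place of Fabp4 depended on the length used, since its annotated union of 4489 bases includes a long unspliced model while its coding transcript has 896 bases. With coding transcript lengths Fabp4 averaged 12.1 per kilobase in hyperoxia, against 1.67 per kilobase in normoxia and stood before Scd2. In hyperoxia Fabp4 was the third by either length, at 2.41 ± 1.52 per kilobase of exon union (SD, n = 3). Fasn, the last in both groups, averaged 0.151 ± 0.101 per kilobase in hyperoxia, against 0.128 ± 0.0800 per kilobase in normoxia (SD, n = 3 each).

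**Figure D1:**
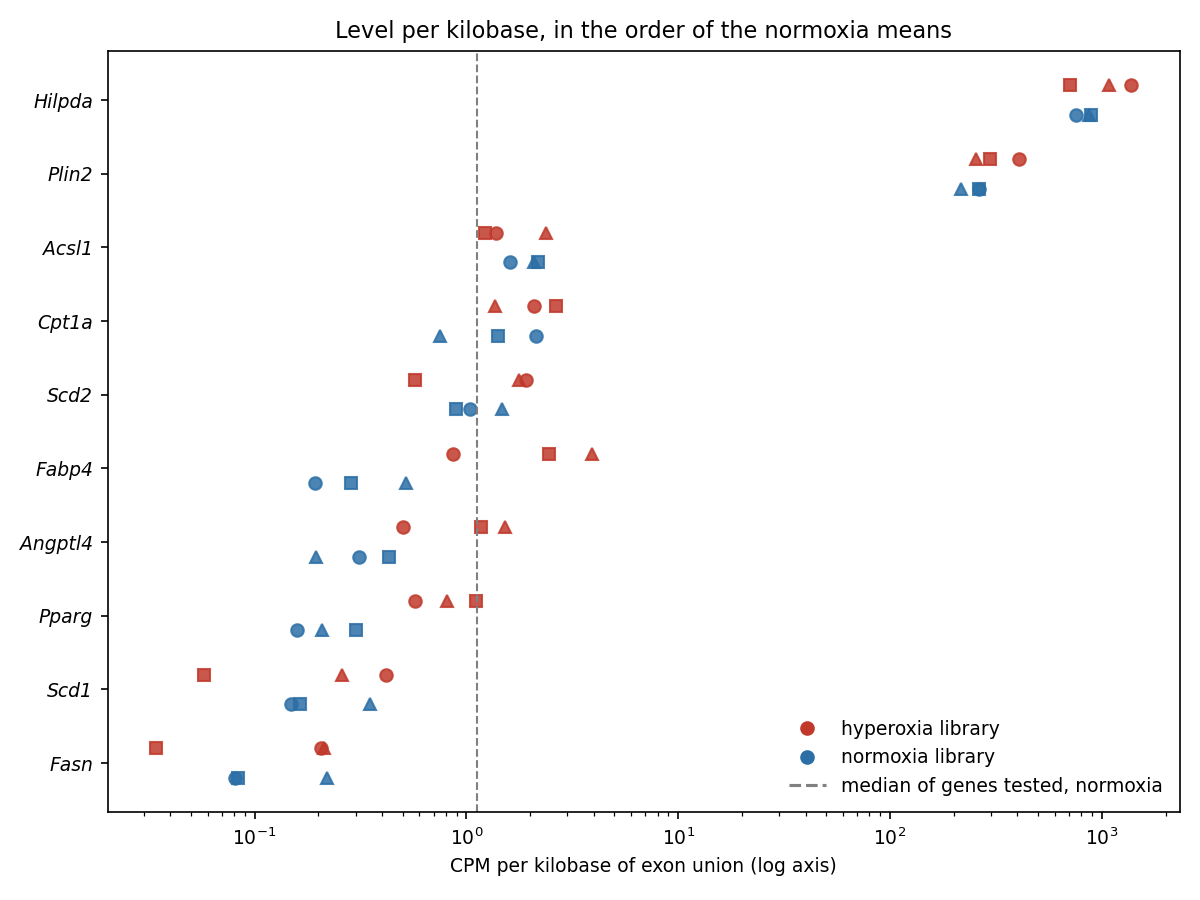
Level of each of the 10 genes in CPM per kilobase of exon union on a log axis, hyperoxia libraries above normoxia libraries for each gene, with circles, squares and triangles for replicates 1, 2 and 3 and a dashed line at the normoxia median of all genes ranked, 1.12. Hilpda and Plin2 lie far right of the other 8 genes in every library.

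The droplet pair sat among other abundant genes of triglyceride storage. G0s2, which encodes another inhibitor of adipose triglyceride lipase, averaged 10133 ± 3594 per kilobase in hyperoxia, against 11424 ± 3345 per kilobase in normoxia (SD, n = 3 each), at ranks 6 and 5 of all genes ranked. Dgat2 and Dgat1, which encode the enzymes of the last step of triglyceride synthesis, averaged 243 ± 64.4 and 196 ± 71.9 per kilobase in hyperoxia, against 192 ± 30.1 and 159 ± 39.2 per kilobase in normoxia (SD, n = 3 each). Pnpla2, the lipase itself, averaged 66.8 ± 4.37 per kilobase in hyperoxia, against 73.1 ± 10.2 per kilobase in normoxia (SD, n = 3 each). Neither storage nor synthesis genes were uniform in level. Acaca, the cytosolic acetyl-CoA carboxylase that supplies Fasn, had at most 19 counts in a hyperoxia library and 17 in a normoxia library and did not pass the filter. Acly, also of fatty acid synthesis, averaged 5.02 ± 1.79 per kilobase in hyperoxia, against 3.93 ± 0.579 per kilobase in normoxia (SD, n = 3 each). Plin1, a droplet coat gene, had 0 counts in all libraries.

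Within their families, some of the 10 genes made up nearly all of the transcripts and others very little. Plin2 held 90.4% to 93.5% of the summed level per kilobase of the 5 perilipins in hyperoxia libraries and 90.1% to 91.8% in normoxia libraries, and Plin1, the perilipin of adipocytes, had 0 counts in all 6. Cpt1a, the liver-type carnitine palmitoyltransferase, held 94.3% to 99.6% of its family in hyperoxia and 97.6% to 99.5% in normoxia. Scd2 held 82.0% to 89.0% of the desaturase family in hyperoxia and 79.8% to 85.7% in normoxia, and the desaturases are similar enough in sequence that reads may be shared between them. Acsl1 was a minor member of the long-chain acyl-CoA synthetases, with 8.16% to 17.4% in hyperoxia and 13.8% to 18.8% in normoxia, whereas Acsl5 held 67.8% to 84.2% in hyperoxia and 62.9% to 71.7% in normoxia. With coding transcript lengths the mean share of Acsl1 was larger, 25.8% in hyperoxia and 32.8% in normoxia.

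Hilpda (ENSMUSG00000043421, chromosome 6, 29272488 to 29275446, plus strand, GRCm38) was at 1516, 782 and 1191 CPM in the hyperoxia libraries, against 830.1, 986 and 959 CPM in the normoxia libraries. Replicates 1 and 3 of hyperoxia were above all normoxia libraries and replicate 2 was below them, so the groups overlapped. Its log2 difference, hyperoxia minus normoxia, was 0.33 ± 0.28 (SE), 0.57 without hyperoxia replicate 2 and 0.12 without hyperoxia replicate 1. Plin2 (ENSMUSG00000028494, chromosome 4, 86648386 to 86670060, minus strand) was at 1426, 1039.5 and 893 CPM in hyperoxia, against 925, 927 and 757 CPM in normoxia. Here hyperoxia replicate 3 was the library that fell among the normoxia values. The log2 difference of Plin2 was 0.36 ± 0.25 (SE), 0.44 without hyperoxia replicate 2 and 0.19 without hyperoxia replicate 1. The ratio of Hilpda to Plin2 per kilobase was 3.34 ± 0.925 in hyperoxia and 3.43 ± 0.589 in normoxia (SD, n = 3 each), with overlapping groups.

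**Figure D2:**
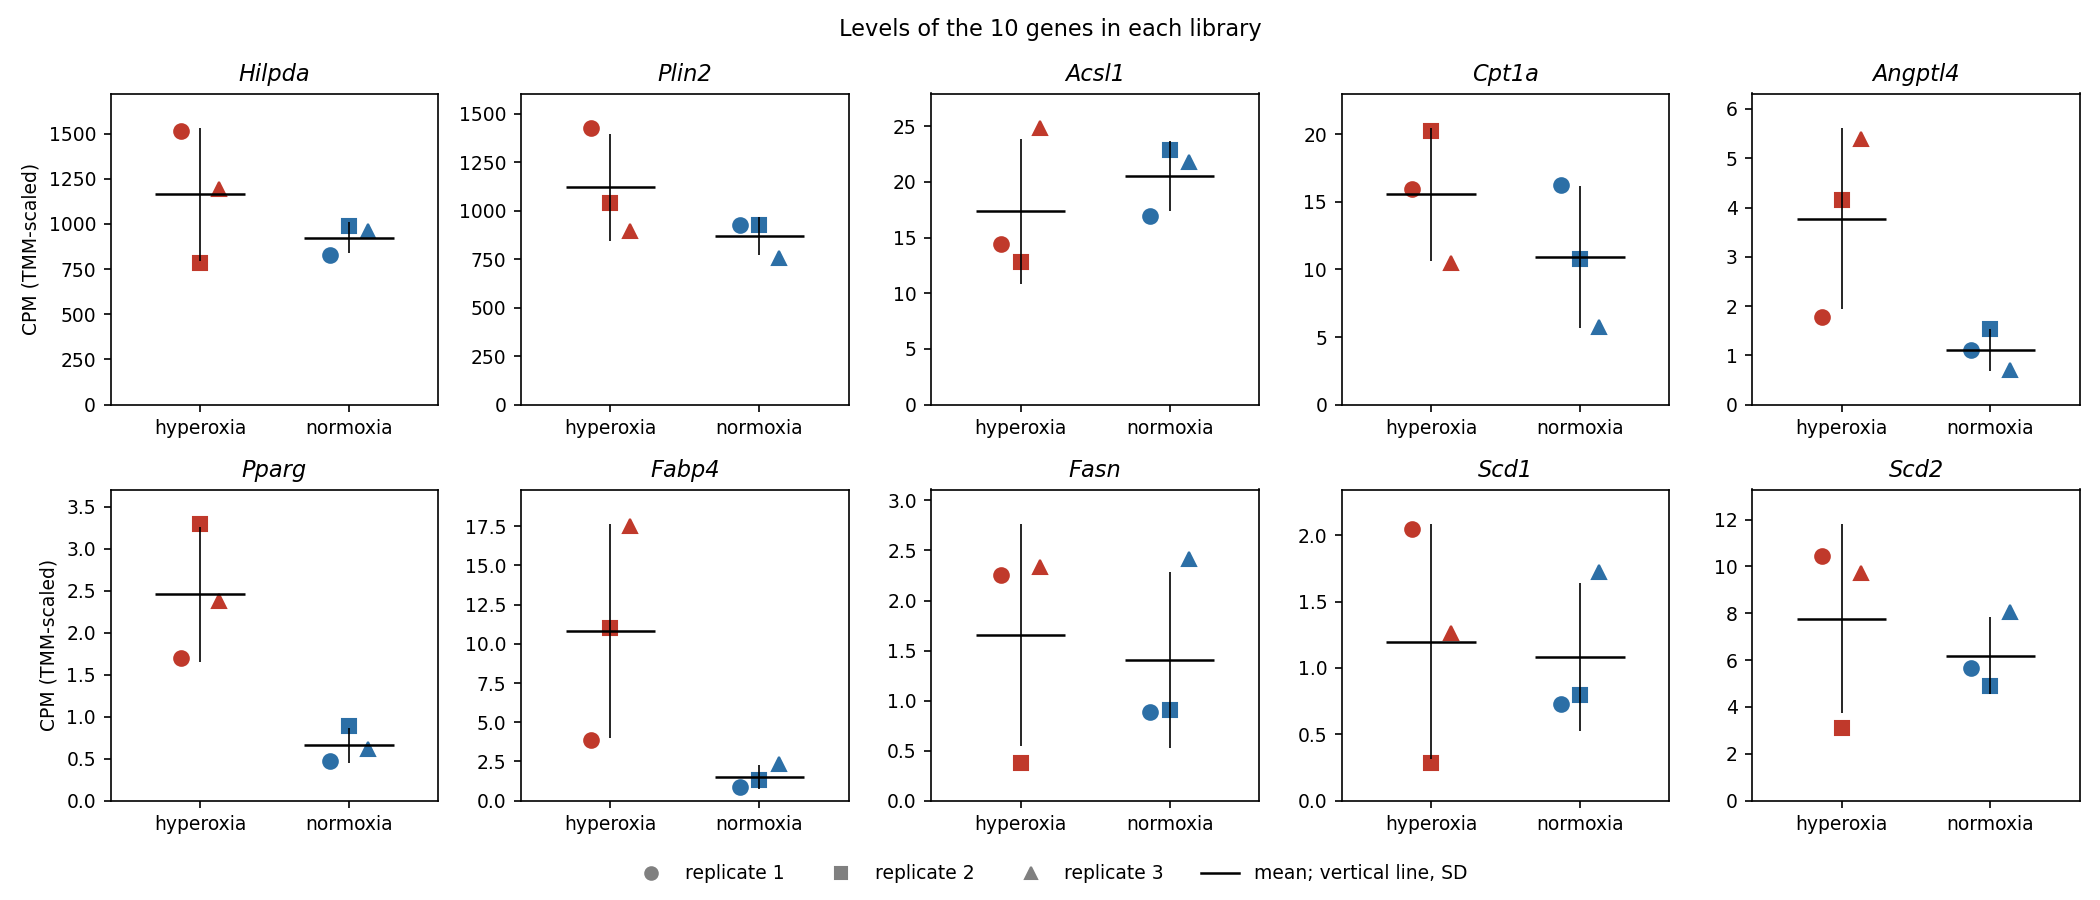
Level of each of the 10 genes in CPM (linear axes from 0), with hyperoxia left of normoxia, a symbol for each replicate, the group mean as a horizontal line and the SD as a vertical line. The groups are apart for Angptl4, Pparg and Fabp4 and overlap for the other 7 genes.

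Pparg, Fabp4 and Angptl4 were higher in every hyperoxia library than in any normoxia library, at low levels. Pparg (ENSMUSG00000000440, chromosome 6, 115360951 to 115490399, plus strand) was at 1.70, 3.29 and 2.38 CPM in hyperoxia, against 0.468, 0.887 and 0.617 CPM in normoxia. These values rest on 67 to 210 counts in a hyperoxia library and 20 to 40 in a normoxia library. The mean was 2.46 ± 0.801 CPM in hyperoxia, against 0.657 ± 0.213 CPM in normoxia (SD, n = 3 each), a ratio of 3.73, and the log2 difference was 1.90 ± 0.41 (SE).

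Fabp4 (ENSMUSG00000062515, chromosome 3, 10204088 to 10208576, minus strand) encodes the fatty acid binding protein of adipocytes, macrophages and capillary endothelium. It was at 3.87, 11.0 and 17.5 CPM in the hyperoxia libraries, against 0.866, 1.29 and 2.34 CPM in the normoxia libraries. The hyperoxia libraries differed among themselves by a factor of 4.53 and the normoxia libraries by a factor of 2.70, and the lowest of them was still above the highest of normoxia. The mean was 10.8 ± 6.83 CPM in hyperoxia, against 1.50 ± 0.758 CPM in normoxia (SD, n = 3 each), a ratio of 7.22, and the log2 difference was 2.85 ± 0.58 (SE).

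Angptl4 (ENSMUSG00000002289, chromosome 17, 33773750 to 33781830, minus strand) encodes a secreted inhibitor of lipoprotein lipase. It was at 1.77, 4.15 and 5.39 CPM in hyperoxia, against 1.10, 1.53 and 0.694 CPM in normoxia, and its lowest hyperoxia library was only slightly above its highest normoxia library. With library totals alone as the scale those libraries crossed and the groups of Angptl4 overlapped, while Pparg and Fabp4 stayed apart. The mean was 3.77 ± 1.84 CPM in hyperoxia, against 1.11 ± 0.419 CPM in normoxia (SD, n = 3 each), and the log2 difference was 1.76 ± 0.48 (SE).

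The count of 3 of 10 genes with groups apart in this direction stands beside 9.57% of all 12908 genes tested. For the other direction the count was 0 of 10 beside 10.3% of all genes. Since the 10 genes were chosen with this comparison known, nothing is read from the shares. Without hyperoxia replicate 2 the count in either direction was 5, as Hilpda and Scd2 were then also apart, both higher. Without hyperoxia replicate 3 it was also 5, with Plin2 higher and Acsl1 lower in hyperoxia. Groups of fewer libraries lie apart more easily and the shares above are for all 6 libraries, so nothing is read from these counts. The quasi-likelihood test of edgeR called 0 genes of the whole table in either direction at an adjusted p of 0.05, which is 0% of those tested, and so none of the 10. At an unadjusted p under 0.05 the same test counted 1175 genes higher, 9.1%, and 505 lower, 3.91%. DESeq2 called 461 genes higher and 52 lower at an adjusted p of 0.05. The median log2 difference over the 10 genes was 0.35, with 9 above 0, and over all genes tested it was 0.04, with 6932 above 0.

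Marker sums of several other cell types were also apart between the groups. Endothelial markers, 11 genes, summed to 30.3, 81.8 and 55.7 CPM in the hyperoxia libraries, against 10.0, 12.7 and 16.9 CPM in the normoxia libraries, with 9 of the 11 apart and higher in hyperoxia. A large part of the normoxia sums was Pecam1, at 16.3, 9.58 and 10.5 CPM in hyperoxia, against 7.59, 7.94 and 8.35 CPM in normoxia. Its log2 difference was 0.61 ± 0.25 (SE), while the median over the 11 genes was 3.34. Tek, the angiopoietin receptor, was close to 0 in normoxia, at 0 to 0.0257 CPM, and Cdh5, the cadherin of endothelial junctions, reached at most 0.283 CPM there. Of the 15 macrophage and monocyte markers 10 were apart and higher in hyperoxia, and none was at 0. Without Lyz2 the other 14 summed to 1483, 2421 and 2542 CPM in the hyperoxia libraries, against 1054, 1011 and 929.8 CPM in the normoxia libraries. Most of that was Apoe, at 834, 1655 and 1562 CPM in the hyperoxia libraries, against 553, 587 and 521 CPM in the normoxia libraries. Stromal fibroblast markers, 10 genes, summed to 42.3, 225 and 258 CPM in the hyperoxia libraries, against 23.7, 21.8 and 62.5 CPM in the normoxia libraries, which overlapped, and 8 of the 9 tested were higher at an unadjusted p under 0.05. Smooth muscle and pericyte markers, 8 genes, summed to 25.7 to 58.4 CPM in hyperoxia, against 15.8 to 22.4 CPM in normoxia. Most of that sum was Acta2, with a log2 difference of 0.73 ± 0.26 (SE), while the median over the 7 genes tested was 2.41. Markers of adipocytes, the cell type best known for Pparg and Fabp4, had sums of 10.8 to 16.4 CPM in hyperoxia, against 17.4 to 18.1 CPM in normoxia. Most of that sum was Retn, and the other 9 genes together had 0.862 to 1.98 CPM in hyperoxia, against 0.773 to 1.54 CPM in normoxia, which overlapped. Plin1 had 0 counts in all libraries and Adipoq, the adiponectin gene, reached at most 0.379 CPM in hyperoxia, against 0.258 CPM in normoxia. Eosinophil, mast cell and basophil markers had sums that were apart and lower, at 41.8 to 101 CPM in hyperoxia, against 109 to 185 CPM in normoxia. Most of that sum was Siglecf, at 38.9 to 95.0 CPM in hyperoxia, against 103 to 178 CPM in normoxia, and the other genes did not share its direction as a set. Of the 4 genes of that list tested, 2 had a log2 difference above 0 and 2 below. Epx, an eosinophil gene, had 0 counts in all libraries. The sums of T and NK cell markers and of B cell markers overlapped, and most of the B cell sum was Ighm. Of 10 T and NK cell markers tested, 8 were above 0 in log2 difference and 2 below. For the B cell markers 5 of 5 tested were above 0. At an unadjusted edgeR p under 0.05 these lists had 4 and 3 genes higher and 0 lower, beside 9.1% and 3.91% of all genes. The part of endothelial cells, macrophages, stromal cells and smooth muscle in the values of Pparg, Fabp4 and Angptl4 was not tested.

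Pparg took a larger share of the PPAR family in hyperoxia, at 19.8%, 51.4% and 35.6% of the summed level per kilobase of its 3 receptors in the hyperoxia libraries and 7.17%, 12.9% and 10.2% in the normoxia libraries. Ppard, which encodes the widely expressed PPAR-delta, was above Pparg per kilobase in every library but hyperoxia replicate 2, at 17.4, 7.93 and 10.6 CPM in hyperoxia, against 15.4, 15.3 and 13.8 CPM in normoxia, with the groups overlapping. With coding transcript lengths Ppard was above Pparg in that library too, and Pparg averaged 25.8% of the family in hyperoxia, with up to 39.0% in a library, against 6.38% in normoxia, with up to 8.23% in a library. Ppara had at most 9 counts in a hyperoxia library and 0 in all normoxia libraries. Among the fatty acid binding proteins, Fabp5, the epidermal form, was above Fabp4 per kilobase in all 6 libraries. Fabp5 averaged 32.4 ± 7.18 CPM in hyperoxia, against 34.3 ± 4.86 CPM in normoxia (SD, n = 3 each), although it has processed copies in the genome that may share its reads.

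Acsl1 and Cpt1a, which activate long-chain fatty acids and admit them to mitochondria, had intermediate levels and overlapping groups. Acsl1 (ENSMUSG00000018796, chromosome 8, 46471037 to 46536051, plus strand) was at 14.4, 12.8 and 24.8 CPM in hyperoxia, against 16.9, 22.8 and 21.8 CPM in normoxia. It was the only gene of the 10 with a negative log2 difference, -0.24 ± 0.28 (SE), -0.05 without hyperoxia replicate 2 and -0.59 without hyperoxia replicate 3, the highest library of all. An exon of Acsl1 overlaps the gene model Gm45244 on the opposite strand, and without a stated strand setting their reads cannot be told apart. Cpt1a (ENSMUSG00000024900, chromosome 19, 3322334 to 3385733, plus strand) was at 15.9, 20.2 and 10.4 CPM in hyperoxia, against 16.2, 10.8 and 5.73 CPM in normoxia. Its normoxia libraries alone differed by a factor of 2.84, and its log2 difference was 0.51 ± 0.39 (SE), with 0.29 without hyperoxia replicate 2, 0.27 without normoxia replicate 3 and 0.99 without normoxia replicate 1.

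The 3 genes of fatty acid synthesis and desaturation differed more between single libraries of a group than between the group means. Fasn (ENSMUSG00000025153, chromosome 11, 120805846 to 120824547, minus strand) was at 2.25, 0.376 and 2.34 CPM in hyperoxia, against 0.890, 0.910 and 2.42 CPM in normoxia. Scd1 (ENSMUSG00000037071, chromosome 19, 44394455 to 44407879, minus strand) was at 2.05, 0.282 and 1.26 CPM in hyperoxia, against 0.726, 0.799 and 1.72 CPM in normoxia. Each was lowest in hyperoxia replicate 2 and high in hyperoxia replicates 1 and 3 and normoxia replicate 3. Scd2 (ENSMUSG00000025203, chromosome 19, 44293674 to 44306864, plus strand), a neighbour of Scd1, was at 10.5, 3.12 and 9.73 CPM in hyperoxia, against 5.67, 4.88 and 8.04 CPM in normoxia, with the same library lowest and the same 3 libraries highest.

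The sum of epithelial markers, 10 genes including Krt8, Krt18, Krt19 and Epcam, had the same library at the bottom and the same 3 at the top. They summed to 295, 18.0 and 226 CPM in the hyperoxia libraries, against 101, 157 and 223 CPM in the normoxia libraries, and none of the 10 was at 0 in all libraries. Not every marker had this order. Krt7 was at 32.5 CPM in normoxia replicate 2, above the 22.0 CPM of hyperoxia replicate 3. Cdh1 was lowest in normoxia replicate 1, at 1.33 CPM, and Esr1 in normoxia replicate 2, at 2.22 CPM. Within the hyperoxia group the highest library exceeded the lowest by a factor of 6.21 for Fasn, 7.27 for Scd1 and 3.35 for Scd2, and within the normoxia group by a factor of 2.72, 2.37 and 1.65. The log2 differences between groups were 0.23 ± 0.69 for Fasn, 0.14 ± 0.68 for Scd1 and 0.32 ± 0.44 for Scd2 (SE), all smaller than their error. Without hyperoxia replicate 2 they were 0.73, 0.64 and 0.72, and without normoxia replicate 3 they were 0.93, 0.71 and 0.62. The sign of the difference was negative for Fasn and Scd1 when hyperoxia replicate 1 was left out, at -0.05 and -0.48. The part of epithelial cells in these values was not tested.

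**Figure D3:**
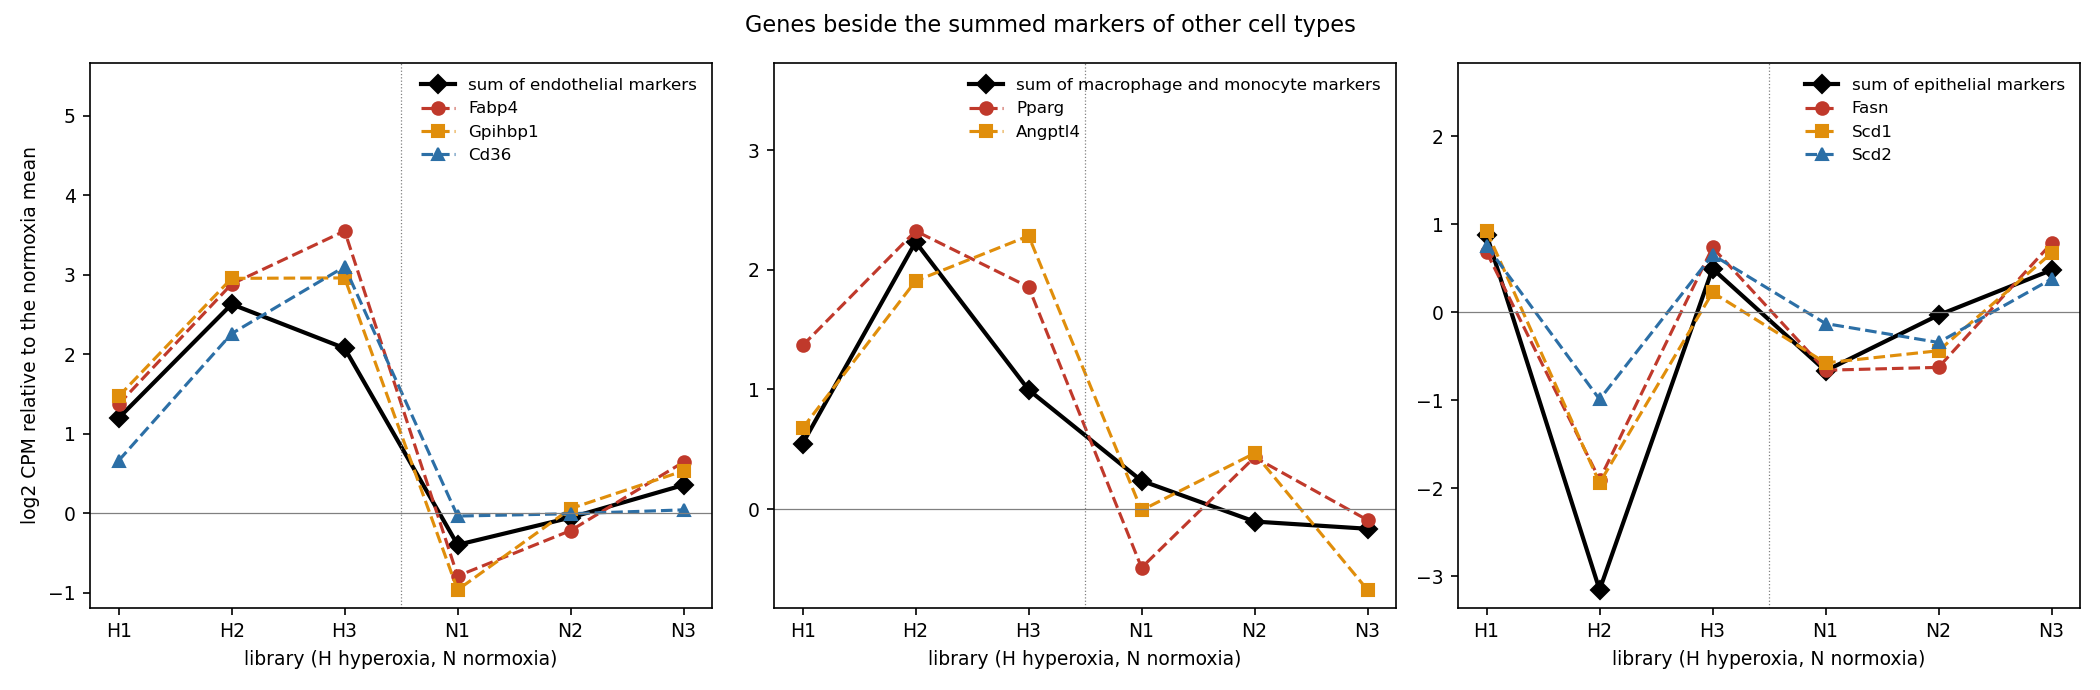
Level in each library as log2 CPM relative to the normoxia mean, hyperoxia libraries H1 to H3 left of normoxia libraries N1 to N3, for the summed markers of a cell type (black diamonds) and for genes of lipid handling (dashed lines), with the genes set beside a marker list after their values were seen. Fasn, Scd1 and Scd2 are lowest in H2, where the epithelial sum is 18.0 CPM. Fabp4, Gpihbp1 and Cd36 are higher in H1 to H3 than in N1 to N3, as are the endothelial sum and the macrophage sum. Most of the macrophage sum in H2 is Lyz2, and a large part of the endothelial sum in N1 to N3 is Pecam1.

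The surrounding pathway was described through 6 lists with 119 further genes, of which 92 passed the filter. The edgeR test called 0 of the 92 at an adjusted p of 0.05, and at an unadjusted p under 0.05 13 were higher and 0 lower in hyperoxia, beside 9.1% and 3.91% of all genes. The groups were apart for 13 genes higher and 2 lower, beside 9.57% and 10.3% of all genes. The median log2 difference over the 92 genes was 0.27, with 68 above 0. DESeq2 called 3 of them, Cd36, Slc27a1 and Gpihbp1, all higher, where it called 3.57% of all genes higher and 0.403% lower.

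Genes of fatty acid uptake and binding had a median log2 difference of 0.49 over 14 genes. The edgeR test counted 5 of them higher at an unadjusted p under 0.05 and 0 lower, beside 9.1% and 3.91% of all genes. The median was 0.77 without hyperoxia replicate 2 and at least 0.42 without any other single library. Gpihbp1, which anchors lipoprotein lipase to capillary endothelium, was at 0.886, 2.48 and 2.48 CPM in hyperoxia, against 0.164, 0.333 and 0.463 CPM in normoxia, a log2 difference of 2.61 ± 0.57 (SE) with an edgeR adjusted p of 0.14, on 7 to 18 counts in a normoxia library. Cd36, the fatty acid translocase, was at 1.97, 5.97 and 10.7 CPM in hyperoxia, against 1.22, 1.24 and 1.28 CPM in normoxia, a log2 difference of 2.31 ± 0.55 (SE) with an edgeR adjusted p of 0.153. Both had every hyperoxia library above every normoxia library, as did 9.57% of all genes tested. The endothelial, the macrophage and monocyte, and the smooth muscle and pericyte sums were apart in the same direction. The part of any of these cell types in the 2 genes was not tested. Slc27a1, a fatty acid transport protein, differed by 1.59 ± 0.36 (SE, edgeR adjusted p of 0.143). Lpl, lipoprotein lipase, differed by 1.57 ± 0.57 (SE, edgeR adjusted p of 0.309) with groups that overlapped, and Lipa, the lysosomal acid lipase, by -0.03 ± 0.19 (SE). Acsl5 and Acsl4, the relatives of Acsl1, differed by 0.33 ± 0.24 and -0.33 ± 0.27 (SE).

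The lipid droplet list, which holds coat proteins, lipases and their inhibitors, had a median of -0.03 over 12 genes (-0.07 to 0.11 without single libraries), 6 above 0 and 6 below. Of these, 1 gene was higher at an unadjusted edgeR p under 0.05 and 0 lower, beside 9.1% and 3.91% of all genes. That gene was Bscl2, which encodes the droplet assembly protein seipin, at 8.63, 26.2 and 11.4 CPM in hyperoxia, against 7.96, 6.61 and 7.68 CPM in normoxia (log2 difference 1.06 ± 0.39, SE, edgeR adjusted p of 0.318). Hyperoxia replicate 2 was far above the others for it, and without that library the difference was 0.45. The abundant genes of the list lay close to 0, with G0s2 at -0.17 ± 0.33, Pnpla2 at -0.13 ± 0.20, Lipe, hormone-sensitive lipase, at -0.27 ± 0.30, and Plin3, a perilipin of small droplets, at 0.08 ± 0.19 (log2 difference, SE). Fitm2, which encodes a droplet budding protein, differed by -0.76 ± 0.63 (SE). Triglyceride synthesis genes had a median of 0.15 over 13 genes. At an unadjusted edgeR p under 0.05, 1 of them was higher and 0 lower, beside 9.1% and 3.91% of all genes. The higher one was Agpat3, an acyltransferase (0.76 ± 0.29, SE, edgeR adjusted p of 0.328). The median of the triglyceride synthesis list was 0.39 without hyperoxia replicate 2, 0.33 without hyperoxia replicate 3, 0.44 without normoxia replicate 1 and 0.08 without normoxia replicate 2. Gpat4, which adds the first acyl chain, differed by 0.60 ± 0.28, Dgat1 by 0.30 ± 0.32 and Dgat2 by 0.34 ± 0.26 (SE).

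**Figure D4:**
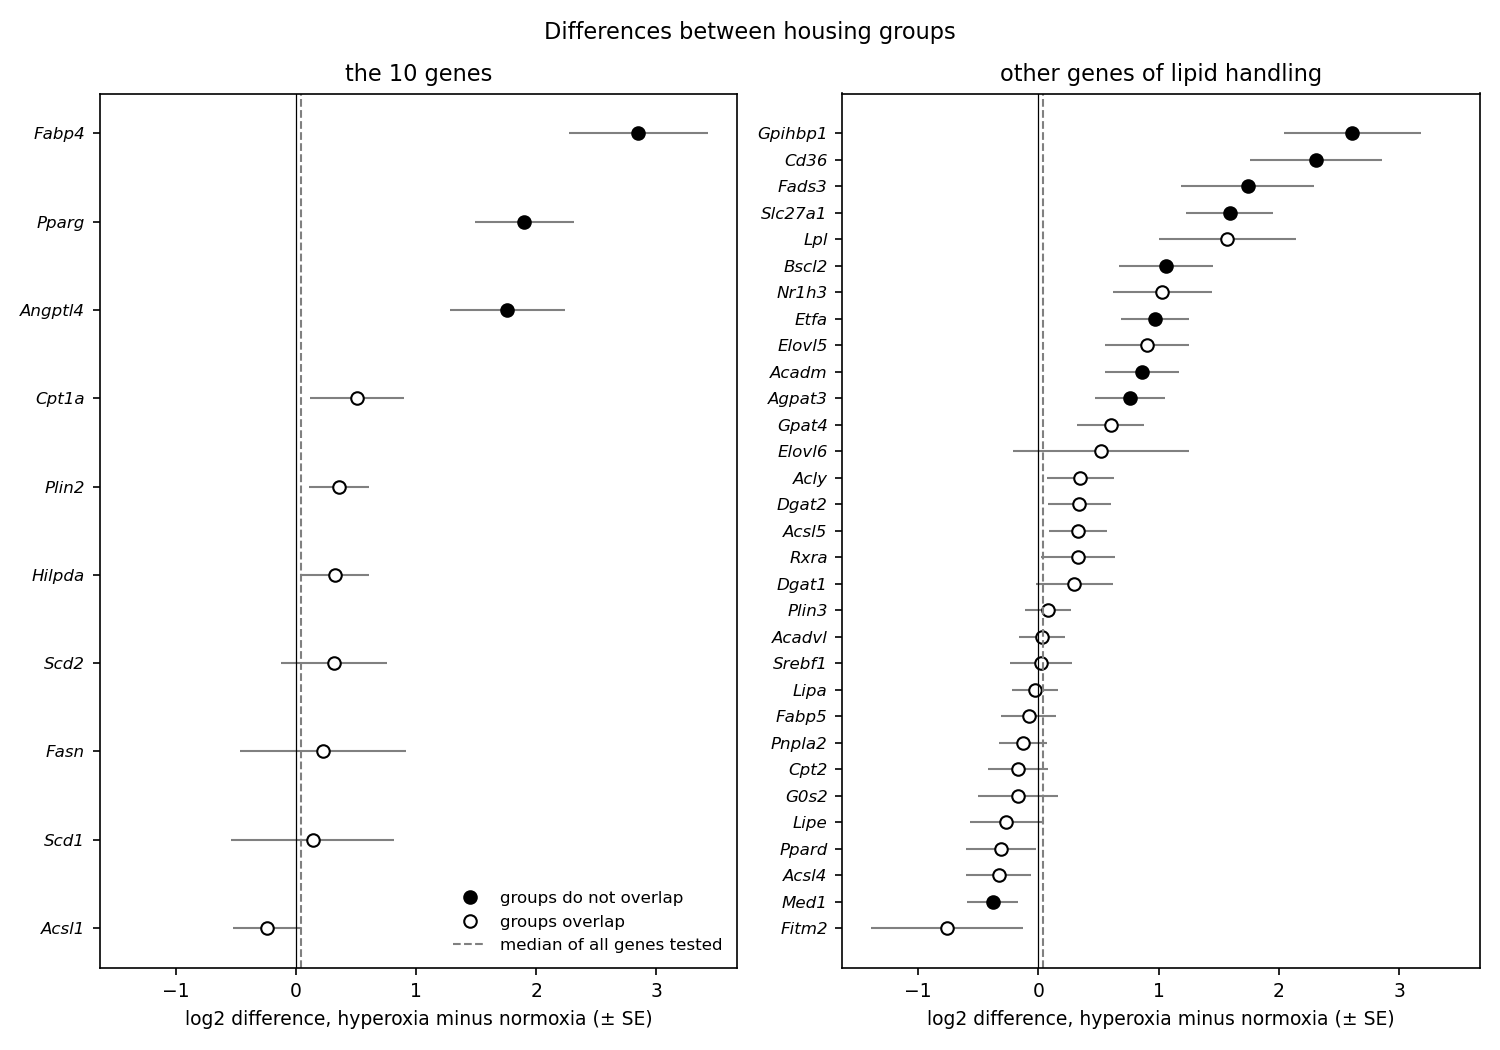
Log2 difference, hyperoxia minus normoxia, with its SE, for the 10 genes (left) and for the named genes of the 6 pathway lists except Rxrb (right). Filled points mark genes whose groups do not overlap, open points those that do, and the dashed line marks the median over all genes tested, 0.04. Fabp4, Pparg and Angptl4 lie between 1.76 and 2.85, and the other 7 of the 10 genes between -0.24 and 0.51.

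Fatty acid oxidation genes had a median log2 difference of 0.37 over 26 genes, 22 of them above 0. By edgeR 3 were higher at an unadjusted p under 0.05 and 0 lower, beside 9.1% and 3.91% of all genes. The median was 0.15 without hyperoxia replicate 2 and 0.56 without hyperoxia replicate 1. Etfa, a subunit of the electron transfer flavoprotein, was at 12.0, 24.8 and 20.3 CPM in hyperoxia, against 8.80, 9.61 and 10.6 CPM in normoxia (log2 difference 0.97 ± 0.28, SE, edgeR adjusted p of 0.216). Acadm, the medium-chain acyl-CoA dehydrogenase, differed by 0.86 ± 0.31 (SE, edgeR adjusted p of 0.305). Cpt2, the partner of Cpt1a on the inner mitochondrial membrane, differed by -0.17 ± 0.25, and Acadvl, the very-long-chain dehydrogenase, by 0.03 ± 0.19 (SE). Pdk4, a kinase known as a PPAR target, had at most 16 counts in a hyperoxia library and 1 in a normoxia library.

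Fatty acid synthesis, desaturation and elongation genes had a median of 0.34 over 16 genes, or 0.13 without hyperoxia replicate 2. Beside 9.1% of all genes higher and 3.91% lower at an unadjusted edgeR p under 0.05, this list had 0 lower and 2 higher. These were Fads3, a desaturase relative with 12 to 47 counts in a hyperoxia library and 7 to 8 in a normoxia library (log2 difference 1.74 ± 0.55, SE, edgeR adjusted p of 0.252), and Elovl5, an elongase of polyunsaturated fatty acids (0.90 ± 0.35, SE, edgeR adjusted p of 0.347). Srebf1, the transcription factor gene known to drive Fasn and Scd1, was at 50.6, 32.2 and 28.9 CPM in hyperoxia, against 43.1, 36.6 and 30.2 CPM in normoxia, with a log2 difference of 0.02 ± 0.26 (SE). Acly, which makes cytosolic acetyl-CoA, differed by 0.35 ± 0.28, and Elovl6, the elongase that follows Fasn, by 0.52 ± 0.73 (SE).

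Receptor partners and coactivators had a median of 0.16 over 11 genes. The list had 1 gene higher at an unadjusted edgeR p under 0.05 and 0 lower, beside 9.1% and 3.91% of all genes. The median was 0.03 without hyperoxia replicate 2, 0.05 without normoxia replicate 2, 0.27 without normoxia replicate 3, and 0.31 without either hyperoxia replicate 3 or normoxia replicate 1. The gene counted higher was Nr1h3, which encodes the liver X receptor alpha, at 7.34, 2.76 and 8.76 CPM in hyperoxia, against 2.67, 3.31 and 3.21 CPM in normoxia (log2 difference 1.03 ± 0.41, SE, edgeR adjusted p of 0.349). Rxra, the main dimer partner of PPAR-gamma in many cells, differed by 0.33 ± 0.31 and Ppard by -0.31 ± 0.29 (SE). Another retinoid X receptor gene, Rxrb, was far above Rxra here, averaging 11.3 per kilobase in hyperoxia and 11.1 in normoxia, against 0.778 and 0.617 for Rxra. It differed by 0.02 ± 0.24 (SE). Med1, a Mediator subunit that binds PPAR-gamma, was lower in every hyperoxia library than in any normoxia library, with a log2 difference of -0.38 ± 0.21 (SE, edgeR adjusted p of 0.465). Ppargc1a, the coactivator PGC-1 alpha, had at most 23 counts in a hyperoxia library and 4 in a normoxia library.

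Patterns most like those of Pparg and Fabp4 were found by the Pearson correlation of log2 CPM over the 6 libraries, given without a p since any gene whose groups lie apart will score high and all values share their libraries. Of 7932 genes compared with Pparg the closest were Dars, an aspartyl-tRNA synthetase (0.998), the phosphatase gene Dusp3 (0.993), the semaphorin and VEGF coreceptor gene Nrp1 (0.992), the methyltransferase complex gene Ash2l (0.989) and Mob3b (0.988). Dars itself was at 17.4, 20.4 and 18.6 CPM in hyperoxia, against 12.6, 15.0 and 13.8 CPM in normoxia, a far smaller difference in the same library order. Of 7931 genes compared with Fabp4 the closest were the small GTPase gene Arl2 (0.997), the matricellular gene Ccn1 (0.995), Nbdy (0.995), the LIM protein gene Crip2 (0.994) and the disulfide isomerase gene Pdia3 (0.994). Ccn1 was at 7.41, 14.1 and 26.9 CPM in hyperoxia, against 1.94, 2.71 and 4.81 CPM in normoxia.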

How the data were processed

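RNA-seq was made from sorted uterine neutrophils with RNeasy Micro extraction and Ovation/NexteraXT library kits (source: the labels' protocols). The authors deposited raw counts per Ensembl gene ID, as whole numbers, for each of the 6 libraries. STAR 2.4.2a, DESeq2 1.16.1 and build GRCm38 are named in the submitters' processing notes. Which program counted reads, with which strand setting and annotation, was not given in the sources used here. GENCODE M21 gave symbols, positions and lengths for 42462 of 43432 IDs.

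The analysis used edgeR 4.0.16 under R 4.3.3, where filterByExpr left 12908 of 23147 genes with a count, TMM scaled the libraries, and a robust quasi-likelihood test compared hyperoxia with normoxia, two-sided, and p-values were adjusted by Benjamini-Hochberg across the table. SEs were derived from the F statistic. The median SE of a log2 difference was 0.34. CPM use TMM-scaled library sizes, and a floor of 3 counts corresponds to 0.0486 to 0.0776 CPM of library totals. Chi-square values per degree of freedom between libraries of a group were 29.8 to 726, so no pair looked like a repeat deposit. Replicates were numbered in order of deposition, which pairs no samples.

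Members and gene lists were chosen with earlier results of these data known. Named pathway genes were the 2 with the lowest p in each of 6 lists and 23 genes fixed by name, and the 5 genes most like Pparg and Fabp4 were sought among genes averaging 1 or more in log2 CPM, gene-model names left out. Genes of other families, Rxrb and single marker genes were named after their values were seen. Alternatives were DESeq2 1.42.0, limma 3.58.1 (voom), other scalings and filters, and omission of single libraries. Scripts were tested on simulated data first. Part of the genotype is not reported here.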

Additional observations from a re-analysis of the deposited data

How the results depend on the processing

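No paired analysis was possible because the labels give the libraries no shared numbers. Against 0 genes called higher and 0 lower, DESeq2 called 461 and 52, voom with quality weights for samples 35 and 1, edgeR without the low-count filter 205 and 9, and a threshold of 0.1 gave 28 and 2. Leaving out single libraries gave 0 to 164 genes higher and 0 to 12 lower, the highest counts without hyperoxia replicate 1. Genes called higher included Pparg, Fabp4 and Angptl4 in DESeq2, Pparg in edgeR without the filter and Fabp4 without hyperoxia replicate 1. Beside them, DESeq2 called 3.57% of all genes higher, edgeR without the filter 205 of 23147 and edgeR without hyperoxia replicate 1 164 of 13499. These calls are no test of the 3 genes, since they were chosen with this comparison known. The median log2 difference over the 10 genes, 0.35, ranged from 0.15 without hyperoxia replicate 1 to 0.68 without hyperoxia replicate 2, and was 0.67 without normoxia replicate 3. The count of 3 genes with groups apart, in either direction, was 2 with library totals. It ranged from 3 to 5 without single libraries, where groups lie apart more easily. The order of levels was the same with longest transcripts or library totals, and 2 genes changed place with coding transcripts, a length chosen after the data were seen, as were the marker sums without Lyz2 or Retn. Signs turned for values near 0, and the cause was not tested. Limma-voom gave -0.10 for Fasn, -0.27 for Scd1 and -0.01 for Srebf1, library totals gave -0.01 for Srebf1, and sample quality weights put Acadvl just below 0. Without single libraries, Fasn ranged from -0.11 to 0.93, Scd1 from -0.48 to 0.71, Fabp5 from -0.20 to 0.09, Lipa from -0.10 to 0.12, Pnpla2 from -0.22 to 0.05, Lipe from -0.38 to 0.05, G0s2 from -0.46 to 0.16, Acadvl from -0.05 to 0.18 and Srebf1 from -0.23 to 0.23. At 20 to 40 counts in a normoxia library, Pparg is the gene of the 3 whose ratio depth limits most.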
